A study of Homo sapiens with 5 samples.

Results

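RNase P RNA, RNase MRP RNA, 7SL RNA and the Y RNAs were followed through 8 gene symbols in 5 libraries of A549, a widely used line of human lung adenocarcinoma cells. The symbols were RPPH1, AL355075.4, RMRP, RN7SL1, RN7SL2, RN7SL3, RNY1 and RNY3, picked by name from 58929 gene rows because structured RNAs took a large and varying share of each library. RMRP has 2 rows, so the 8 symbols came to 9 rows. The levels themselves led to this choice, so they are given as a description, and no test is used to support them. Of the 9 rows, 3 exceeded 1% of all counts in at least 1 library (AL355075.4, RPPH1 and RMRP). The 7SL and Y RNA rows never exceeded 0.0306%, so in these counts the description as abundant holds for the RNase P and RNase MRP rows and not for those of 7SL and the Y RNAs.

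The series compared cells with lowered or raised RBMS1, an RNA-binding protein, and its design text calls all 5 libraries ribosome footprint profiling. One library (shctrl) was the control for the knockdown, 2 were stable RBMS1 knockdown lines made with the hairpins sh1088 and sh1196, one (pCDH) was the control for overexpression, and one (R1A in the labels) a stable RBMS1 overexpression line. Per the labels' protocols, all cells received cycloheximide at 100 ug/mL for 15 min, lysates were digested with RNase I for 5 min, and RNA came from the gradient fractions with single ribosomes after removal of ribosomal RNA. The same protocols mention an input of total RNA, and the molecule is given as total RNA, so that these are footprint libraries rests on the design text. Nothing in the labels says how many clones or separate cultures stand behind a line, so the spread between libraries may be technical.

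RNase P RNA, RMRP, 7SL and the Y RNAs are transcripts of RNA polymerase III that work as the cores of ribonucleoproteins and code for no protein. RPPH1 is the catalytic RNA of RNase P, which removes the leader from tRNA precursors, and RMRP is the related RNA of RNase MRP, which cuts ribosomal RNA precursors. 7SL RNA is the scaffold of the signal recognition particle, which binds ribosomes that are making secretory proteins and brings them to the endoplasmic reticulum. The Y RNAs are small stem-loop RNAs that bind the Ro60 and La proteins.

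Total expected counts lay between 10327747 and 13980843 per library. RBMS1 itself had 21.4 CPM (counts scaled to the same total in each library) in shctrl, 15.0 in sh1088, 16.8 in sh1196, 30.8 in pCDH and 41.9 in the overexpression line, which follows the labels in both arms. The share of counts in nuclear protein-coding genes was 37.7% in shctrl, 42.2% in sh1088, 66.0% in sh1196, 66.3% in pCDH and 62.3% in the overexpression line. All 12 A549 markers had counts, with a sum between 9680 and 17392 CPM. Of the immune markers PTPRC and CD3E were at 0 in all libraries, and CD68 had between 14.8 and 110 CPM. The summed endothelial, fibroblast, alveolar and liver markers stayed at or below 1.34, 11.9, 0.344 and 0.681 CPM.

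The sequences that set what these rows can measure are shown 5′ to 3′ as DNA letters from GENCODE release 29 (GRCh38); the authors' own build is not given in the sources used here. RPPH1 (ENSG00000277209.1) spans chr14:20343075-20343407 on the minus strand, annotated as a ribozyme. AL355075.4 (ENSG00000259001.3), annotated as an antisense transcript, spans chr14:20343048-20343685 on the same strand. Both ends of RPPH1 are shown because they are where the rows part. Capitals mark the first and the last 100 bases of RPPH1, and lower case marks 20 bases before it and 27 after it that only AL355075.4 holds.
RPPH1 start: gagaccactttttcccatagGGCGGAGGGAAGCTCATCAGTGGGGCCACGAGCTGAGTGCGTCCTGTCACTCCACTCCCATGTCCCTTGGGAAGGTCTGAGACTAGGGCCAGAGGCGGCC
RPPH1 end: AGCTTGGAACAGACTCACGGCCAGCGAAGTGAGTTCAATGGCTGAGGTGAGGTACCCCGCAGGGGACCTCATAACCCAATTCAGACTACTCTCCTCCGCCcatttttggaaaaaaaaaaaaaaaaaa
RPPH1 therefore lies whole inside AL355075.4, and its 333 bases make up 52.2% of the 638 bases of that row. Another 278 bases of AL355075.4 lie before it. None (0 of 289) of the 45-base windows of RPPH1 is found in no other gene row, and the only other row that holds them is AL355075.4. For AL355075.4, 305 of 594 such windows are its own. A window of 45 bases is close to the mean fragment length, which the deposited lengths and effective lengths put at 46.0 nt in shctrl, 43.4 in sh1088, 46.3 in sh1196, 52.3 in pCDH and 40.8 in the overexpression line.

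**Figure D1:**
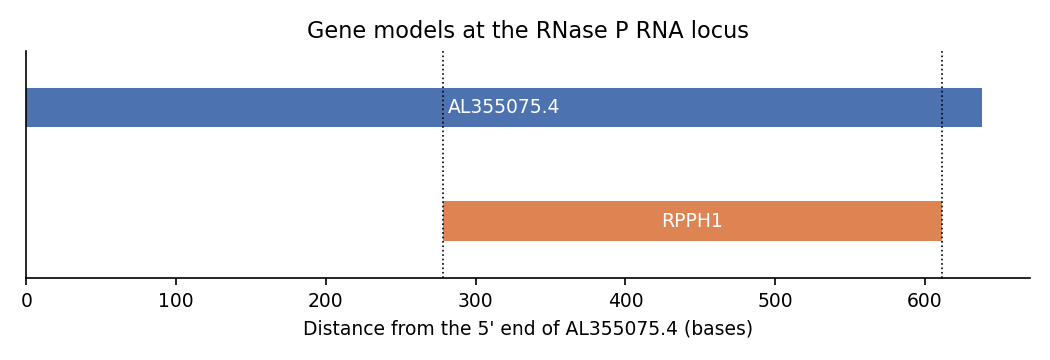
Gene models of AL355075.4 and RPPH1 drawn to scale along the distance in bases from the AL355075.4 5′ end, with dotted lines at the ends of RPPH1. RPPH1 covers 333 of the 638 bases of AL355075.4, and 278 bases lie before it.

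The 2 RMRP rows overlap in the same way at chromosome 9. ENSG00000269900.3 spans chr9:35657751-35658018 on the minus strand and is annotated as a lincRNA, and ENSG00000277027.1 spans chr9:35657754-35658017 and is annotated as a ribozyme. Capitals mark the shorter row of 264 bases, which lacks 1 base at the 5′ end and 3 at the 3′ end.
RMRP: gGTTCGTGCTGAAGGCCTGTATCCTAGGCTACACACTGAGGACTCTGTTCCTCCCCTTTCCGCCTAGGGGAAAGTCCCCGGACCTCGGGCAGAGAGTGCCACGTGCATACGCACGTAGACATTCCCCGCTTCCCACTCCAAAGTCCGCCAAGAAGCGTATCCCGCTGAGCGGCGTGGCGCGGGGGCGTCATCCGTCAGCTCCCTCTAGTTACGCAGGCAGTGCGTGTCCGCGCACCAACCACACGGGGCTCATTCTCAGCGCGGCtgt
The shorter row had an expected count of 0 in all 5 libraries, while the longer row held every RMRP count. Values for RMRP below are those of the longer row.

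The RNase P locus was the largest single source of counts in each library. AL355075.4 ranked first by count among all rows in 5 of 5 libraries, with 3485212 counts in shctrl, 2437480 in sh1088, 749905 in sh1196, 2098548 in pCDH and 1154715 in the overexpression line. RPPH1 had 241075 counts in shctrl, 300053 in sh1088, 356108 in sh1196, 0 in pCDH and 302579 in the overexpression line. RPPH1 was thus among the 6 highest rows of 4 libraries and listed at 0 in pCDH, where AL355075.4 held all counts of the locus. The posterior standard deviation that RSEM gives for AL355075.4, a measure of how firmly reads are placed, was 1812 counts in shctrl, 1454 in sh1088, 810 in sh1196, 1.38 in pCDH and 1084 in the overexpression line.

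RPPH1 made up 6.47% of the locus in shctrl, 10.96% in sh1088, 32.2% in sh1196, 0% in pCDH and 20.8% in the overexpression line. By the Wilson method at the 95% level, the 0 of pCDH allows at most 0.000183%. That bound takes the split of reads by RSEM as given and does not measure how uncertain the split is. The shares of the other 4 libraries differ by more than counting error, but no gene row tells a fragment of RPPH1 from the same bases of AL355075.4. Intervals in this text cover counting error only and take each read as an independent molecule. PCR copies are not independent, so the intervals may be too narrow even for counting error. The summed count of both rows does not depend on how reads were split between them, and it is used below as the level of the locus.

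The summed locus took 32.1% of all counts in shctrl, 23.3% in sh1088, 10.7% in sh1196, 15.0% in pCDH and 13.9% in the overexpression line. shctrl was highest and sh1196 lowest, 2.99-fold apart. The hairpin libraries lay on either side of the pCDH and overexpression libraries, so the spread between hairpins was wider than the gap between that pair. The pair of libraries with the highest locus share, shctrl and sh1088, had the lowest nuclear protein-coding share, in part because both are shares of 1 total. With all 8 symbols left out, the coding share was still 57.8% in shctrl and 58.2% in sh1088, against 76.4% in sh1196, 78.7% in pCDH and 73.9% in the overexpression line. The mitochondrial share was 15.7%, 19.6%, 9.44%, 12.7% and 11.2% in the same order. The part of library make-up in the locus values was not tested. In bulk libraries fewer cells that hold an RNA and less of it per cell cannot be told apart.

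**Figure D2:**
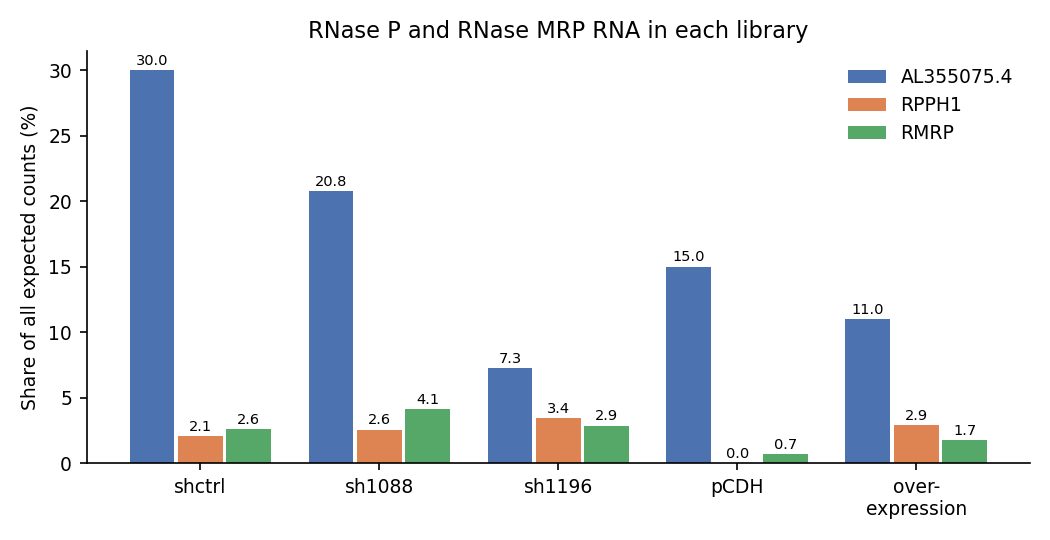
Bars give the share of all expected counts (%) held by AL355075.4, RPPH1 and RMRP in each of the 5 libraries, 1 bar per gene and library. AL355075.4 is highest in shctrl at 30.0% and lowest in sh1196 at 7.26%, and RPPH1 is at 0 in pCDH.

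RMRP followed another order. It had 300134 counts in shctrl, 481222 in sh1088, 295312 in sh1196, 95020 in pCDH and 182160 in the overexpression line. These were 2.58%, 4.10%, 2.86%, 0.680% and 1.74% of each library, so pCDH was lowest and sh1088 highest, 6.03-fold apart. All 3 libraries of the hairpin system lay above both libraries of the pCDH system. RBMS1 was also lower in those 3 libraries, so vector system and RBMS1 level cannot be told apart in this split.

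Per length, in the authors' TPM, which divides by an effective gene length, the summed RNase P locus exceeded RMRP in every library. Unlike the summed count, this TPM sum depends on the split of reads between RPPH1 and AL355075.4, because the rows differ in length. The ratio of the locus level to the RMRP level was 4.99 in shctrl, 2.403 in sh1088, 1.89 in sh1196, 8.16 in pCDH and 3.71 in the overexpression line. Each control therefore had a higher ratio than the libraries compared with it. For AL355075.4 alone the ratio to RMRP ran from 0.954 in sh1196 to 8.16 in pCDH. The 9 rows together held 21.2% of TPM in shctrl, 27.1% in sh1088, 18.2% in sh1196, 22.5% in pCDH and 19.3% in the overexpression line. In counts the same rows held 34.7%, 27.4%, 13.6%, 15.7% and 15.7%, so the order of the libraries depends on the scale.

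The 7SL genes lie near each other on chromosome 14. RN7SL1 (ENSG00000276168.1) spans chr14:49586580-49586878 on the plus strand, inside the span of RPS29 on the other strand, and whether counting used strand is not given in the sources used here. RN7SL2 (ENSG00000274012.1, chr14:49862550-49862849) and RN7SL3 (ENSG00000278771.1, chr14:49853616-49853914) are on the minus strand. Few bases separate the 3 rows. Against RN7SL1, RN7SL2 has 4 substitutions and 1 inserted base, and RN7SL3 has 7 substitutions. In the alignment 98.7% of RN7SL1 bases were the same in RN7SL2 and 97.7% in RN7SL3. Of the 45-base windows, 30 of 255 in RN7SL1, 29 of 256 in RN7SL2 and 144 of 255 in RN7SL3 are in no other gene row. How reads with several matches were placed is not given in the sources used here. RSEM gives a posterior standard deviation of 0 for the 3 rows in all libraries, so no counted read was shared out between rows. If reads that match several rows were left out before counting, the counts would cover only the windows that a row has to itself, and the 7SL levels would be too low by an amount that differs between the 3 genes. This was not tested.

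RN7SL1 had 334 counts in shctrl, 71 in sh1088, 26 in sh1196, 317 in pCDH and 27 in the overexpression line. RN7SL2 had 849, 248, 119, 4280 and 100 counts in the same order. RN7SL3 had 2526, 584, 190, 1034 and 100. On plain totals each gene was higher in both controls than in any library with altered RBMS1. The summed 7SL level was 319 CPM in shctrl, 76.9 in sh1088, 32.4 in sh1196, 403 in pCDH and 21.7 in the overexpression line. The 18.6-fold range ran from the overexpression line to pCDH, and shctrl stood at 0.793 times pCDH. pCDH, with the highest sum, also had the longest mean fragments at 52.3 nt, and the overexpression line, with the lowest, the shortest at 40.8 nt. shctrl and sh1196 had nearly the same mean length, 46.0 and 46.3 nt, and differed in 7SL. The part of fragment length in these levels was not tested.

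**Figure D3:**
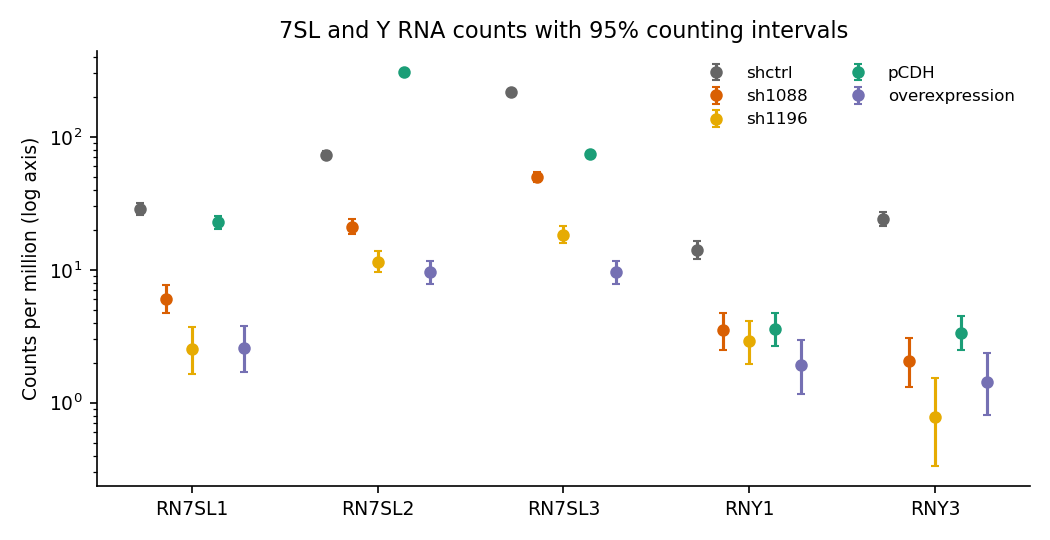
Points give CPM on a log axis for RN7SL1, RN7SL2, RN7SL3, RNY1 and RNY3 in the 5 libraries, with 95% counting intervals. On this scale the 3 7SL genes are higher in both controls than in the hairpin and overexpression libraries, while RNY1 and RNY3 are highest in shctrl.

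The make-up of the 7SL counts was not the same in the 2 controls. RN7SL3 held 68.1% of the summed 7SL counts in shctrl, 64.7% in sh1088 and 56.7% in sh1196, but 18.4% in pCDH and 44.1% in the overexpression line. RN7SL2 held 22.9% (Wilson 95% interval 21.6 to 24.3) in shctrl and 76.0% (74.9 to 77.1) in pCDH. In the overexpression line RN7SL2 held 44.1% (37.7 to 50.6), and in sh1088 and sh1196 it held 27.5% (24.7 to 30.5) and 35.5% (30.6 to 40.8). pCDH was the 1 library in which RN7SL2 was ahead of RN7SL3. RN7SL1 held between 5.63% and 11.9% of the sum. The rows of 677 7SL pseudogenes had counts in 110 rows, with sums of 181 in shctrl, 142 in sh1088, 101 in sh1196, 131 in pCDH and 118 in the overexpression line. The pseudogene sum thus varied far less between libraries than the sum of the 3 genes.

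**Figure D4:**
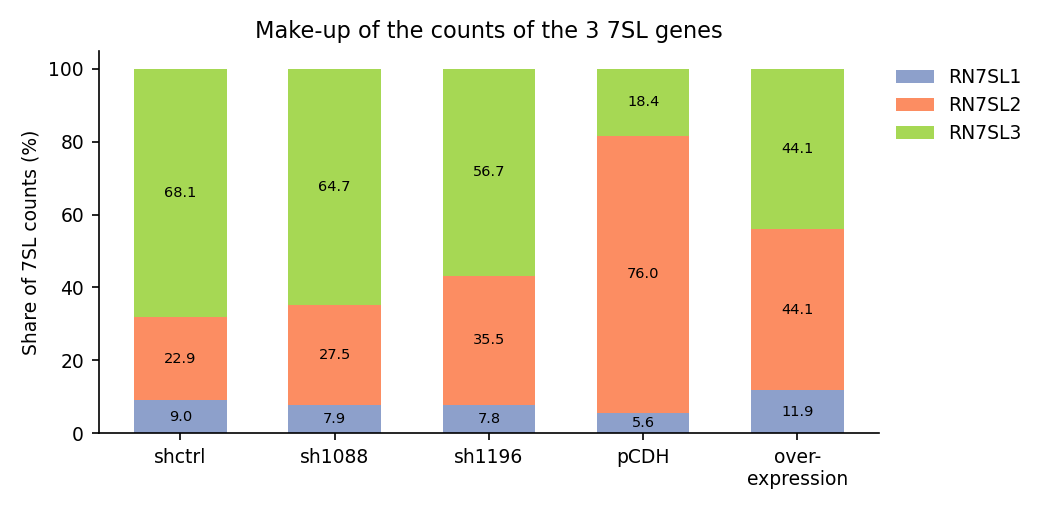
Stacked bars give the share (%) of the summed counts of RN7SL1, RN7SL2 and RN7SL3 held by each gene in the 5 libraries. RN7SL3 holds 68.1% in shctrl and 18.4% in pCDH, where RN7SL2 holds 76.0%.

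RNY1 (ENSG00000201098.1, chr7:148987136-148987248, minus strand) and RNY3 (ENSG00000202354.1, chr7:148983755-148983856, plus strand) are neighbours. RNY1 is shown, with no part marked, because its 113 bases are short enough for a fragment to cover much of the RNA.
RNY1: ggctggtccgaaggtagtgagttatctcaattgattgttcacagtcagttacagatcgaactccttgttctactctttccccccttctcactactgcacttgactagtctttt
Of the 45-base windows, 38 of 69 in RNY1 and 0 of 58 in RNY3 are in no other gene row. Rows of the Rfam Y RNA family (RF00019, 758 rows, chosen after their values were seen) and the named Y pseudogenes (53 rows) hold such copies, and RSEM gives both Y rows a posterior standard deviation of 0 as well. RNY3 still had 281 counts in shctrl, so which reads its row holds is not known here. The RF00019 rows summed to 121 counts in shctrl, 64.6 in sh1088, 26.6 in sh1196, 36.0 in pCDH and 36.0 in the overexpression line.

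RNY1 had 165 counts in shctrl, 41 in sh1088, 30 in sh1196, 50 in pCDH and 20 in the overexpression line. RNY3 had 281, 24, 8, 47 and 15 counts in the same order. In CPM shctrl stood apart for both, at 14.2 for RNY1 against 1.91 to 3.58 in the other 4 libraries, and at 24.2 for RNY3 against 0.775 to 3.36. shctrl had 3.97 times the RNY1 level and 7.19 times the RNY3 level of pCDH. RNY3 made up 63.0% (Wilson 95% interval 58.4 to 67.4) of the summed Y counts in shctrl and 21.1% (11.1 to 36.3) in sh1196. In sh1088 it made up 36.9% (26.2 to 49.1), in pCDH 48.5% (38.8 to 58.3) and in the overexpression line 42.9% (28.0 to 59.1). At these depths the intervals of the last 3 shares overlap. The sh1196 interval also overlaps those of sh1088 and the overexpression line, and the shctrl interval overlaps that of the overexpression line.

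The knockdown libraries were then set against shctrl on counts scaled by TMM, which takes most genes as unchanged. The log2 ratio was -2.45 in sh1088 and -4.34 in sh1196 for RN7SL1, -1.996 and -3.49 for RN7SL2, and -2.33 and -4.39 for RN7SL3. RNY1 stood at -2.23 and -3.12 and RNY3 at -3.77 and -5.79. AL355075.4 was lower by unequal amounts, at -0.74 in sh1088 and -2.87 in sh1196. RPPH1 stood at 0.10 and -0.09, and RMRP, the RNase MRP RNA, at 0.46 in sh1088 and -0.68 in sh1196. The summed locus had -0.67 and -2.41. Every ratio was lower in sh1196 than in sh1088. The TMM-scaled size of sh1196 was 1.40 times its total, against 0.909 for sh1088 and 0.788 for shctrl. On plain totals RPPH1 was instead higher in sh1196, at 3.45% against 2.56% of counts. Scaling to the plain totals moved the median log2 ratio of all genes from 0.07 to 0.61. The mean of both hairpins over shctrl, near 0 for RPPH1 and RMRP under TMM, was 0.53 and 0.43 on the plain totals and 1.15 and 1.02 in TPM, while the 7SL and Y RNA ratios and that of AL355075.4 stayed below 0 on each of these scales.

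Of the 9 rows 8 had enough counts to be fitted, all but the short RMRP row. Of these, 5 (the 7SL and Y RNA genes) were at least 2-fold lower in both hairpin libraries, against a background of 4.51% of 14913 genes (673 genes). The median over these rows was -2.59, and over all genes fitted it was 0.07. The choice of members used these libraries, so nothing is read from that difference. In the edgeR quasi-likelihood test with Benjamini-Hochberg adjustment, 0% of genes (0 of 14913) were called at 0.05, and 876 had an unadjusted p under 0.05. DESeq2 called 13 genes (0.0737%). No call on a member is read as a test, because the choice used the same libraries, and the same holds for the authors' calls. In the authors' deposited table, 5 members were called down (RNY1, RNY3, RN7SL1, RN7SL2 and RN7SL3, log2 fold changes from -4.51 to -2.57) beside 1.77% of all genes with an adjusted p, and 0 were called up, beside 1.69%. In the authors' deposited table AL355075.4 stood at -1.45 with an adjusted p of 0.0634, RMRP at -0.01 and RPPH1 at -0.00.

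The choice of control mattered for most of these RNAs. Against pCDH, 2 members (RN7SL1 and RN7SL2) were at least 2-fold lower in both hairpin libraries, beside 10% of 15508 genes. RN7SL3 then stood at 0.05 in sh1088 and -1.998 in sh1196, and RNY3 at -0.09 and -2.11. RNY1 was at 0.59 and -0.29, AL355075.4 at 1.09 and -1.04, and RMRP at 3.22 and 2.08. The controls themselves differed by a log2 ratio, pCDH over shctrl, of -1.94 for the locus, -2.77 for RMRP, -0.51 for summed 7SL, -2.83 for RNY1 and -3.69 for RNY3. Vector system, line and library cannot be told apart in that difference, since each control is 1 library.

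Overexpression against its pCDH control is 1 library against 1, so it has no test, and ratios carry counting intervals alone. RN7SL2 was lowest, with a log2 ratio of -4.92 (95% interval -5.22 to -4.63). RN7SL1 stood at -3.05 (-3.68 to -2.48) and RN7SL3 at -2.87 (-3.18 to -2.57). RMRP was higher at 1.44 (1.43 to 1.45). AL355075.4 was at -0.36, but RPPH1, which shares its bases, went from 0 to 302579 counts, and the summed locus was at -0.03. For RPPH1 a fold would rest on the listed 0, so none is read from it. RNY1 at -0.82 (-1.65 to -0.05) and RNY3 at -1.15 (-2.09 to -0.28) rest on 20 and 15 counts in the overexpression line.

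Of the 6 member rows with a mean of at least 5 CPM, RN7SL2 and RN7SL3 were at least 2-fold lower, beside 15.4% of 10837 genes. RN7SL1 passed that level through pCDH alone, at 22.7 CPM against 2.58 in the overexpression line, and is not counted. RMRP was at least 2-fold higher, beside 13.3%, and RPPH1 is not counted because it passed through the overexpression line alone. RNY1, RNY3 and the short RMRP row were under that level. With shctrl as baseline instead, RMRP turned from 1.44 to -1.35 and AL355075.4 stood at -2.22. RMRP, AL355075.4, RN7SL2 and RN7SL3 were at least 2-fold lower there, beside 11.1% of 10167 genes. RN7SL1, RNY1 and RNY3 passed the level there through shctrl alone and are not counted. The shares of 15.4%, 13.3% and 11.1% leave out no such genes, so they follow a wider rule than the members counted. In the authors' deposited table, RN7SL1, RN7SL2 and RN7SL3 were called down at -2.33, -4.04 and -1.52, with 11.7% of genes called down. RMRP at 1.60 and RPPH1 were called up in the authors' deposited table, where 13.7% of genes were called up. AL355075.4 had a log2 fold change of 0.34 in the authors' deposited table, the opposite sign to the TMM-scaled ratio of -0.36.

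**Figure D5:**
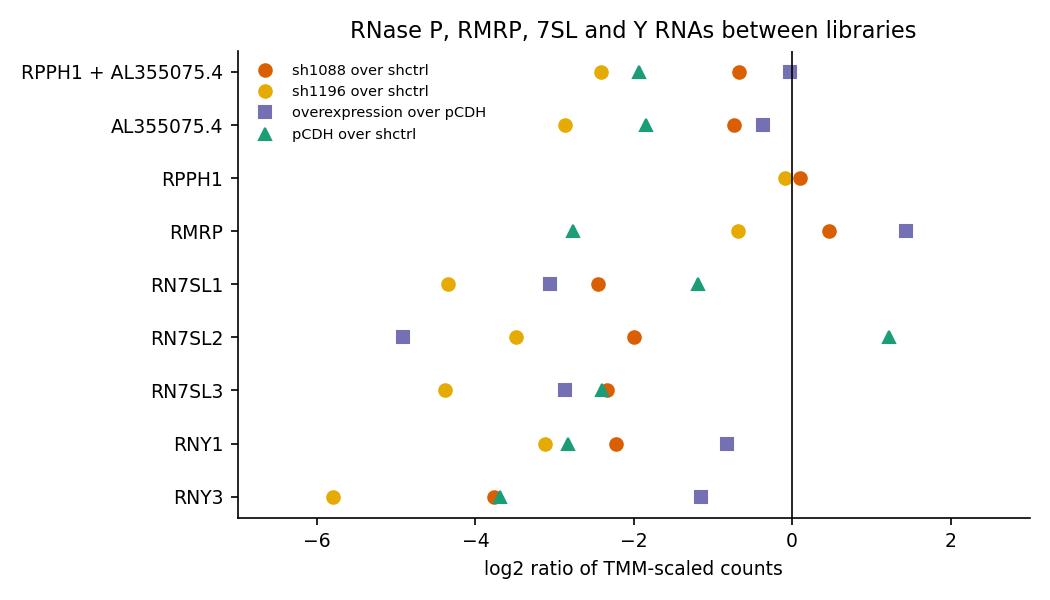
Points give log2 ratios of TMM-scaled counts for each gene: sh1088 and sh1196 over shctrl, overexpression over pCDH, and pCDH over shctrl. RN7SL2 reaches -4.92 in overexpression and RNY3 -5.79 in sh1196, and the RPPH1 points that involve pCDH are off the scale and not drawn.

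The proteins that bind or make these RNAs were not used in the choice and were tested in the same edgeR fit of the knockdown. Of 60 genes tested 0 were called after adjustment. The fit called 0 of all 14913 genes, so this count says nothing particular about these proteins. Only RO60 had an unadjusted p under 0.05 in edgeR, beside 876 of the 14913 genes. DESeq2 called 0 of the 60, beside 0.0737% of all genes. Of 11 proteins of RNase P and RNase MRP, 6 had a positive and 5 a negative estimate, with a median of 0.05. RPP30, a subunit of RNase P, had the smallest p of this list, at a log2 ratio of -0.91 with an SE of 0.43 and an adjusted p of 0.828 in edgeR. It had 27.3 CPM in shctrl, 17.5 in sh1088 and 24.5 in sh1196. POP7 at -0.75 (SE 0.56, edgeR adjusted p = 0.845) and RPP14 at -0.83 (SE 0.70, edgeR adjusted p = 0.858), 2 further subunits, followed.

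Of the 8 signal recognition particle and receptor genes, 5 had a positive and 3 a negative estimate, with a median of 0.14. SRP9, a protein of the Alu domain of the particle, stood at -0.80 (SE 0.46, edgeR adjusted p = 0.828). SRP68 and the receptor subunit SRPRA stood at 0.48 and 0.46. None of these passed edgeR. Of 13 Y RNA binding proteins 11 could be tested, and of these 6 were positive and 5 negative, with a median of 0.09. RO60, which encodes Ro60, stood at -1.05 (SE 0.46, edgeR adjusted p = 0.828). It had 81.8 CPM in shctrl, 50.4 in sh1088, 62.3 in sh1196, 31.3 in pCDH and 97.6 in the overexpression line. SSB, which encodes La, stood at 0.42 and the helicase MOV10 at 0.77.

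Of 30 genes of RNA polymerase III and its factors, 18 were positive and 12 negative, with a median of 0.08. GTF3C6, a TFIIIC subunit, stood at -1.07 (SE 0.49, edgeR adjusted p = 0.828), GTF3A, the TFIIIA factor, at -0.77 and BRF1, a TFIIIB subunit, at 0.87. The median over all genes fitted was 0.07. In overexpression over pCDH, with no test, the medians were -0.05 for RNase P and RNase MRP proteins, 0.47 for the signal recognition particle, -0.15 for Y RNA binding proteins and 0.09 for RNA polymerase III. At least 2-fold higher were 2 of 11 (RPP14 at 2.35 and RPP30 at 1.28), 1 of 8 (SRP14 at 1.15), 2 of 10 (RO60 at 1.73 and IFIT5 at 1.43) and 3 of 30 (GTF3A, GTF3C3 and POLR3F, from 1.00 to 1.05). GTF3C6 at -2.26, MAF1, the polymerase III repressor, at -1.52 and SNAPC4 at -1.31 were at least 2-fold lower.

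Other small structured RNAs gave different orders of the libraries. The vault RNA VTRNA1-1 had 98.7 CPM in shctrl, 166 in sh1088, 107 in sh1196, 20.7 in pCDH and 137 in the overexpression line. VTRNA1-2 had 75.1, 149, 155, 12.7 and 151, and VTRNA1-3 had 60.1, 60.2, 43.1, 7.01 and 31.0 CPM. All 3 were lowest in pCDH, as RMRP was, and none was highest there, as 7SL was. The RN7SK row had at most 11.65 counts, but a row named RF00100 (ENSG00000202198.1, chosen after its values were seen) overlaps it at chr6:52995620-52995950. RF00100 had 3657 CPM in shctrl, 5955 in sh1088, 4794 in sh1196, 593 in pCDH and 7513 in the overexpression line. TERC, the telomerase RNA, had 481.68 counts in pCDH and 29.47 to 49.3 in the other libraries. RNY4 had 1 to 14 counts, RNU6ATAC 15 to 45 and RNU6-8 at most 1, while VTRNA2-1, BCYRN1, RNU6-1, RNU6-2, RNU6-7 and RNU6-9 were at 0 in all 5 libraries.

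Likeness of pattern was described over the 5 libraries as the root mean square distance between log2(CPM + 1) values, each centred on its own mean, over 10602 genes. Nearest to the summed RNase P locus were MT-ATP8 at 0.091, MINCR at 0.133 and CDC26 at 0.137. Nearest to RMRP were PLIN2 at 0.13, SERPINB8 at 0.18 and WIPI1 at 0.217. Both had close neighbours, in a comparison of many genes over few libraries. RNY1 had BLCAP at 0.231, BTG1 at 0.246 and TIMM9 at 0.252, and RNY3 had SNHG25 at 0.476, VAMP2 at 0.603 and BTG1 again at 0.722. The summed 7SL level had no gene as near, with NUPR1 at 0.757, WBP1 at 0.836 and RF02271 at 0.855. The distance was not scaled for range, so 7SL, with its 18.6-fold range, can lie farther from other genes for that alone. The added 1 CPM also damps the range of the low Y RNA levels. Among the structured RNAs themselves the locus and RNY1 were closest at 0.487, and RMRP and 7SL farthest apart at 2.21.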

How the data were processed

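Expression in 5 A549 libraries was taken from RSEM tables. Expected counts, TPM, FPKM and posterior standard deviations are the authors' RSEM output, per the file headers. The authors also deposited a comparison table per arm, with a mean signal of scaled counts, log2 fold changes, a test score and p-values, per the file headers. Bowtie, STAR 2.4.2, RSEM 1.3.1 and DESeq2 are named, with no role, in the submitters' processing notes. Neither the genome build nor the handling of multiply matching reads is given in the sources used here. Of 58929 identifiers, 58656 matched GENCODE release 29 by gene and 273 did not, and 47515 also matched in version.

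Expected counts were rounded. Knockdown (2 libraries) against shctrl (1) was fitted with edgeR 4.0.16 (quasi-likelihood, robust, TMM, filterByExpr, Benjamini-Hochberg at 0.05) in R 4.3.3, with 1 residual degree of freedom, so the fit takes the spread of its 1 control from the hairpin libraries. Overexpression against pCDH used TMM-scaled ratios with exact conditional 95% counting intervals, genes at a mean of 5 CPM or more and a 2-fold threshold. CPM values use the plain library totals, without TMM. DESeq2 1.42.0, other scalings, the deposited TPM and FPKM, no filter and the other control were alternatives. Sequence windows were searched, on the sense strand, in GENCODE transcripts of genes that have a row. All 8 symbols were named, with the 3 smallest edgeR p-values per protein list, every gene of the small RNA list and the 3 nearest patterns per RNA. Some items are not reported here. The members and lists were chosen with earlier results of these data known.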

Additional observations from a re-analysis of the deposited data

How the results depend on the processing

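Under the alternatives the number of genes called in knockdown, 0 with edgeR, was 13 with DESeq2, 27 with library size scaling, 102 without a filter on low counts and 93 with pCDH. It stayed at 0 with DESeq2 size factors in edgeR and with TMM computed without the members, and the partner proteins called stayed at 0 under all of these. The summed members in knockdown, at -1.14, ranged from -2.18 to -0.54 with either hairpin library left out, and turned to 0.10 in the deposited TPM and 0.83 against pCDH. In overexpression the summed members, at 0.077, came to 0.081 with DESeq2 size factors, 0.084 with scaling to nuclear protein-coding genes, -0.0064 with library size scaling, -0.22 in TPM, 0.31 in FPKM and -1.92 against shctrl. Genes past 2-fold in overexpression, 3111, were 11707 without the filter and 1953 against shctrl. Against the other control the sign turned for AL355075.4 (0.39), RNY1 (0.22) and the RNase P locus (0.64) in knockdown, and for RMRP (-1.35) in overexpression. RPPH1 stood at -0.30 in overexpression over shctrl and has no fold against its 0 in pCDH. The count of members at least 2-fold lower then went from 5 to 2 of 8 rows in knockdown, beside 4.51% and 10% of all genes. This alternative was chosen after seeing the data. In overexpression it was 3 of 6 rows and 7 of 8, beside 15.4% and 11.1% of all genes. RN7SL1 entered both overexpression counts through the control alone, and RNY1 and RNY3 entered the second through their level in shctrl. The cause of these changes was not tested. Of the other values for single genes and sums, 86 of those in knockdown and 45 of those in overexpression kept their value within the spread or interval. A further 10 and 28 moved without a turn of sign past 2-fold. The spread in knockdown is taken from the difference between the hairpins. Values with a hairpin left out therefore fell within it by construction and carry no weight. The 45 also include RPPH1 ratios against its listed 0, from which nothing is read. Leaving out a hairpin library leaves no residual degree of freedom, so edgeR and DESeq2 counts were not run there, and RPPH1 has no TPM or FPKM ratio against its listed 0. No paired analysis was possible because the groups compared share fewer than 2 replicate numbers. Depth limits RNY1 and RNY3 most, at 8 to 50 counts in every library but shctrl.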

Other observations

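The authors' deposited fold changes for overexpression differ from the plain ratio of their own deposited counts by an amount that depends on the gene. A single scaling factor per library would give 1 shift for all genes. The authors' deposited table minus the log2 count ratio came to 1.20 for AL355075.4, 0.66 for RMRP, 1.23 for RN7SL1, 1.38 for RN7SL2, 1.85 for RN7SL3, 0.72 for RNY1 and 0.76 for RNY3. Over 10203 genes with at least 50 counts in both libraries, the median of this shift was 0.49, the 5th percentile 0.13 and the 95th percentile 0.97, so RN7SL2, RN7SL3 and AL355075.4 lay above the 95th percentile. RN7SL1, RNY1 and RNY3 had fewer counts than that in the overexpression line and are not ranked. For AL355075.4 the log2 count ratio was -0.86, against 0.34 in the authors' deposited table. How the deposited table was fitted is not given in the sources used here.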
